A study of Mus musculus with 2 samples.

Results

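The Mir26 family of the mouse consists of 3 microRNA (miRNA) genes, Mir26a-1, Mir26a-2 and Mir26b, and their counts were examined in neural tube of embryos at 12.5 days. The members were taken by symbol in GENCODE release M21, and all 3 were found among the 1973 miRNA genes counted. The tissue was neural tube, the rudiment of brain and spinal cord, of strain B6NCrl, with male and female embryos mixed. Replicate 1 pooled 120 embryos and replicate 2 pooled 88, and no other tissue, age or treatment was compared. Each library is therefore a mean over many embryos and over every cell type left in the dissection, and fewer cells of a type cannot be told apart from less RNA per cell.

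A miRNA gene is transcribed as a longer precursor, from which a hairpin of RNA is cut. The hairpin yields a mature strand from its 5′ side (5p) and one from its 3′ side (3p), and the strand that is loaded into an Argonaute protein guides it to messenger RNAs that pair with bases 2 to 8, the seed. The Mir26 genes lie in introns of the genes Ctdspl, Ctdsp2 and Ctdsp1, which encode small phosphatases of the RNA polymerase II tail. These phosphatases act with the repressor REST, which keeps neuronal genes silent in cells that are not neurons, and in zebrafish miR-26b was described as repressing ctdsp2, the host gene of its own family, during neurogenesis. The 5p strands miR-26a-5p and miR-26b-5p are the guides usually studied, with the Polycomb enzyme gene Ezh2 among the described targets of miR-26a.

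The mature strands are shown because the counts turn on which of them differ between the genes. Sequences are those of RefSeq on GRCm38.p6 (mm10), which held all 3 genes, and capitals mark the seed.

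mmu-miR-26a-5p (Mir26a-1 and Mir26a-2): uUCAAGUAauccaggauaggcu
mmu-miR-26b-5p (Mir26b): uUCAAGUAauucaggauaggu
mmu-miR-26a-1-3p: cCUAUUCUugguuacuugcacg
mmu-miR-26a-2-3p: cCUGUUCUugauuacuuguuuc
mmu-miR-26b-3p: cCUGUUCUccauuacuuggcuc

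The guide of Mir26a-1 and that of Mir26a-2 were identical over all 22 bases. Counted from the 5′ end, miR-26b-5p differed from miR-26a-5p by the substitutions C11U and C21U, was 1 base shorter with 21 bases, and kept the seed. No other gene among the 1738 mature entries of the table had the seed UCAAGUA at bases 2 to 8. The 3p strands had diverged further. Over 22 bases, miR-26a-1-3p and miR-26a-2-3p differed at 6 positions (A4G, G11A, C19U, A20U, C21U and G22C), of which A4G lies in the seed. The strand miR-26b-3p differed from miR-26a-2-3p at 4 positions and from miR-26a-1-3p at 8. The 3p strands thus fell into a seed of their own for Mir26a-1, CUAUUCU, and the seed CUGUUCU of Mir26a-2 and Mir26b, which the 3p strands of Mir6932 and Mir7039 also had.

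The whole hairpins are shown with capitals on every base that lies in a window of 20 bases found in another annotated mouse hairpin on either strand.

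Mir26a-1: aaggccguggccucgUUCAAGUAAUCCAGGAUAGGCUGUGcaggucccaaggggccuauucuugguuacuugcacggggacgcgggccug
Mir26a-2: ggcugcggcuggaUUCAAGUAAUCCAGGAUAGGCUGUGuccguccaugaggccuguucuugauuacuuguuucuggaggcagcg
Mir26b: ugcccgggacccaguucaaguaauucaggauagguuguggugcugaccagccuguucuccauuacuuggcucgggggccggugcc

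Mir26a-1 and Mir26a-2 shared a run of 25 bases, which begins at the first base of the guide and ends 3 bases after its last. Of 71 windows in Mir26a-1 and 65 in Mir26a-2, 6 each were shared, and in every case they lay in this run. Of 66 windows in Mir26b none occurred in another hairpin, and its longest run in common with Mir26a-1 was 11 bases. The deposited tables have a row named for multimapping reads, apart from the genes, and the labels give the inserts a size under 30. How the counting treated a read with several places was read from that name alone and not tested on alignments. Genes with every listed mature strand shared can still hold assigned reads. Mir9-3, with 2 listed strands, had 1288 in replicate 1 and 1318 in replicate 2. Mir219a-2, with 1 listed strand and named after its values were seen, had 31648 and 19897. Strands that are not listed were not looked for, so the reads of Mir219a-2 cannot be ascribed to its shared strand. A read of the shared guide has the same sequence at both Mir26a loci, while reads of either 3p strand, or of the guide of Mir26b, match 1 annotated hairpin.

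**Figure D1:**
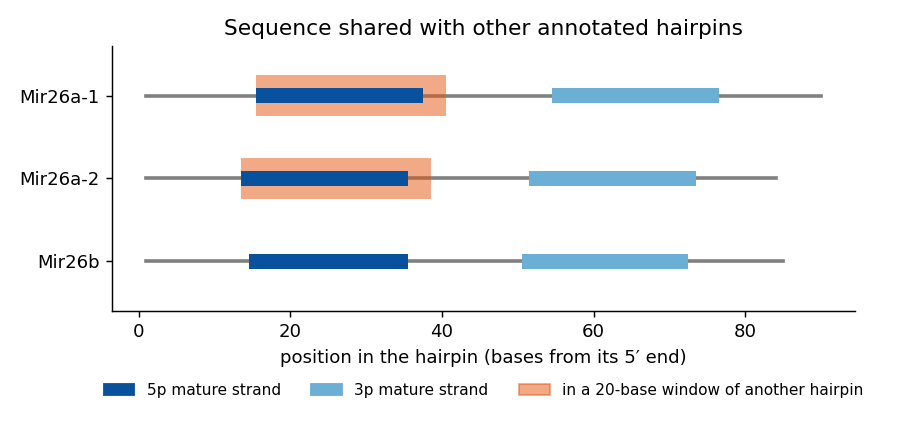
Map of the 3 hairpins, with the position in bases from the 5′ end on the horizontal axis. Dark bars are 5p strands, light bars 3p strands, and the orange boxes cover bases in a 20-base window of another annotated hairpin. The box spans the whole 5p strand of Mir26a-1 and Mir26a-2 (25 bases), and Mir26b has none.

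The reads assigned to the family were almost all in Mir26b. This gene had 61461 reads in replicate 1 and 56190 in replicate 2, on the strand of the gene. Mir26a-2 had 95 and 91 reads, and Mir26a-1 had 21 and 24. The order Mir26b, Mir26a-2, Mir26a-1 was the same in both libraries, and no value of one gene overlapped those of another. All 3 genes were detected, meaning at least 10 reads in each library, and none had a read on the opposite strand.

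As reads per 1000000 own-strand gene reads (CPM), Mir26b reached 12798 in replicate 1 and 12704 in replicate 2, a mean of 12751 ± 66.1 (SD, n = 2). Mir26a-2 reached 19.8 and 20.6 CPM, a mean of 20.2 ± 0.561, and Mir26a-1 4.37 and 5.43 CPM, a mean of 4.90 ± 0.745. The libraries held 4802411 and 4422853 own-strand gene reads, and a count of 0 would allow up to 0.625 and 0.678 CPM (3 counts), so Mir26a-1 stood above that limit in both. The exact binomial (Clopper-Pearson, 95%) interval of Mir26a-1 ran from 2.71 to 6.68 CPM in replicate 1 and from 3.48 to 8.07 in replicate 2. That of Mir26a-2 ran from 16.0 to 24.2 and from 16.6 to 25.3 CPM. The libraries carry no stated molecular identifiers, so several reads may stem from 1 molecule, and these intervals and limits cover counting error only.

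**Figure D2:**
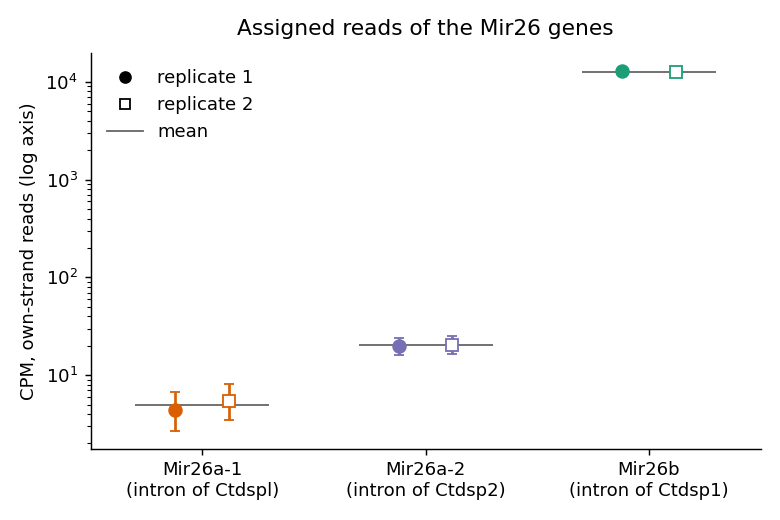
CPM of own-strand reads (log axis) for each Mir26 gene, with a filled circle for replicate 1, an open square for replicate 2, exact 95% binomial intervals as bars and the mean of the 2 replicates as a line. The libraries lie close together for every gene, at about 12751 CPM for Mir26b, 20.2 for Mir26a-2 and 4.90 for Mir26a-1.

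Within a library, Mir26b outnumbered Mir26a-2 by 647.0 times in replicate 1 and 617.5 times in replicate 2, a mean of 632.2 ± 20.8 (SD, n = 2). It outnumbered Mir26a-1 by 2927 and 2341 times, a mean of 2634 ± 414.0. Both ratios lay above 1 by far more than their spread. Mir26b is the only member whose guide is in 1 annotated hairpin alone, and how many reads of the guide shared by Mir26a-1 and Mir26a-2 were assigned to either gene is not known. These are therefore ratios of assigned reads, which cannot be read as ratios of the mature miRNAs.

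The Mir26a copies have the same guide, and each has a 3p strand of its own. Mir26a-2 outnumbered Mir26a-1 by 4.52 times in replicate 1 and 3.79 times in replicate 2, a mean of 4.16 ± 0.518. The exact 95% interval of this ratio, from counting error, was 2.80 to 7.64 in replicate 1 and 2.40 to 6.22 in replicate 2, so it excluded 1 in each library. An exact test of an order between genes cannot give a p below 0.5 in 2 libraries, and the ratio is given with its spread for that reason. The counts hold both strands of a hairpin together, and which stretch of each hairpin the reads came from was not analysed here.

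Together the 3 genes held 1.28% ± 0.00648 of all gene reads (SD, n = 2), of which Mir26b made up 99.8% ± 0.0112 and the Mir26a genes 0.196% ± 0.0112. Multimapping reads numbered 3448592 in replicate 1 and 2698981 in replicate 2, which is 56.0 and 47.9 times the reads assigned to the family. How many of them carry the miR-26a-5p sequence was not tested, so the counts set no upper limit on miR-26a and do not rank it against miR-26b.

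Among the 371 detected miRNA genes, Mir26b was the 14th by mean CPM, Mir26a-2 the 281st and Mir26a-1 the 341st. These ranks order assigned reads, and how many reads common to copies of a gene are in them was not tested. Mir26b stood next to genes of quite different kinds. Above it were Mir615 of the Hoxc cluster, with 15833 ± 1929 CPM, and Mir30e, an intronic gene of Nfyc, with 12833 ± 739.3. Below it were Mir23b with 12502 ± 1377 CPM and Mir322 with 11750 ± 388.9. The ratio of Mir30e to Mir26b was 1.01 ± 0.0632 and that of Mir23b 0.980 ± 0.103, and neither differed from 1 by more than its spread. Mir615 was higher (1.24 ± 0.145) and Mir322 lower (0.922 ± 0.0353) in both libraries.

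The neighbours of the Mir26a genes could not be separated from them. Around Mir26a-2 these were Mir452 (20.6 ± 2.02 CPM), Mir181b-1 (20.5 ± 1.04), Mir5126 (115 reads in replicate 1 and 71 in replicate 2) and Mir34b (18.9 ± 0.891). Around Mir26a-1 they were Mir5618 (22 and 24 reads), Mir1b (4.99 ± 0.291 CPM), Mir211 and Mir5626 (4.88 ± 0.131 CPM each). Their ratios to the Mir26a gene in question lay within 1 SD of 1 or on both sides of it.

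**Figure D3:**
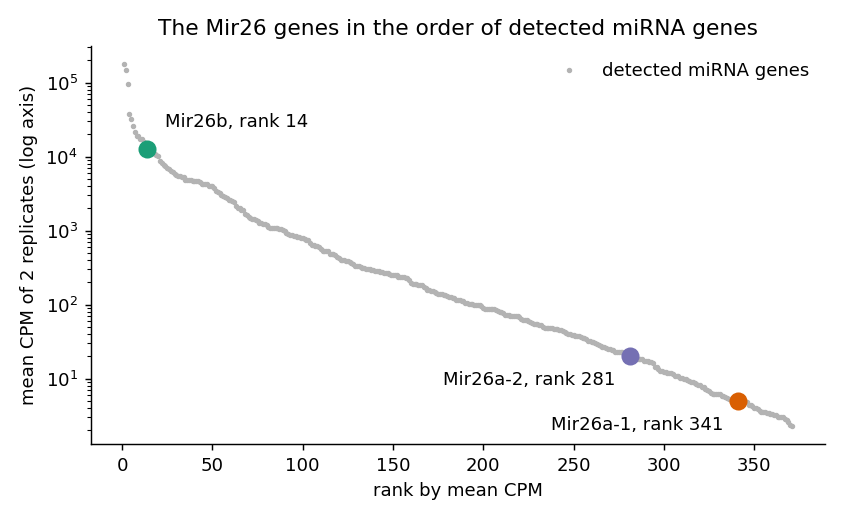
Mean CPM of the 2 replicates (log axis) against rank for the 371 detected miRNA genes, each a grey dot, with the Mir26 genes as large dots. By assigned reads, Mir26b is the 14th in the order, and Mir26a-2 and Mir26a-1 lie at ranks 281 and 341.

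The positions of the genes were alike. Mir26b lies on chromosome 1 (74394310 to 74394394), Mir26a-2 on chromosome 10 (126995530 to 126995613) and Mir26a-1 on chromosome 9 (119031796 to 119031885), each on the plus strand and on the strand of its host gene. In the principal transcript of the host, Mir26b is in intron 4 of 6 of Ctdsp1, Mir26a-2 in intron 5 of 7 of Ctdsp2, and Mir26a-1 in intron 5 of 7 of Ctdspl. The hosts differ in size, with 5.78 kb for Ctdsp1, 21.3 kb for Ctdsp2 and 117.5 kb for Ctdspl, and so does the distance from the host's start, with 2.80, 16.8 and 105.3 kb. The most counted gene thus had the shortest host and the shortest intron, 564 bases against 1946 and 3283, although 3 genes are too few to relate the values. Host messenger RNA was not measured in these libraries.

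Mir26a-2 touches an exon in part of the annotation. Its last base, 126995613, is also the first base of 2 further Ctdsp2 transcripts, a coding one and one with a retained intron, so that 1 base of the hairpin is exonic there. Mir26a-1 and Mir26b overlap no exon of any annotated host transcript. Besides the Mir26 genes the hosts hold 1 other miRNA gene, Mir546, which lies in Ctdsp2 2.83 kb beyond Mir26a-2 on the same strand. It had 2 reads in replicate 1 and 3 in replicate 2 and was not detected.

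The hairpins were computed to fold alike. RNAfold gave minimum free energies of -49.4 kcal/mol for Mir26a-1 (90 bases), -44.5 for Mir26a-2 (84 bases) and -43.5 for Mir26b (85 bases). The guide had 20 of 22 bases paired in Mir26a-1, 19 of 22 in Mir26a-2 and 18 of 21 in Mir26b, and in every hairpin 6 of the 7 seed bases were paired. The gene with the fewest reads had the lowest energy.

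The Mir26a genes were then set beside the other counted genes by how their mature strands are shared. Of 858 counted genes with a mature strand in the RefSeq table, 775 had no listed strand that occurs in another hairpin of that table. A further 49 had 1 of several listed strands shared, as Mir26a-1 and Mir26a-2 do, and 34 had every listed strand shared. The classes follow the entries listed there: Mir125b-1 fell in the first class, while its copy Mir125b-2 was not classed. In these classes 273, 36 and 9 genes were detected, or 35.2%, 73.5% and 26.5%. The median levels, over detected genes alone, were 123.2, 138.7 and 70.9 CPM. The Mir26a genes were low within their own class, where Mir26a-2 was the 30th and Mir26a-1 the 34th of 36. The class was led by Mir92-1 with 3977 ± 608.5 CPM and Mir181a-1 with 3963 ± 622.4 CPM, which were named after their values were seen. Mir26b was the 12th of the 273 detected genes with no listed strand shared. The classes cover 318 of the 371 detected genes, so these ranks and medians leave genes out. Mir99b and Mir615, both above Mir26b by mean CPM, were not classed.

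**Figure D4:**
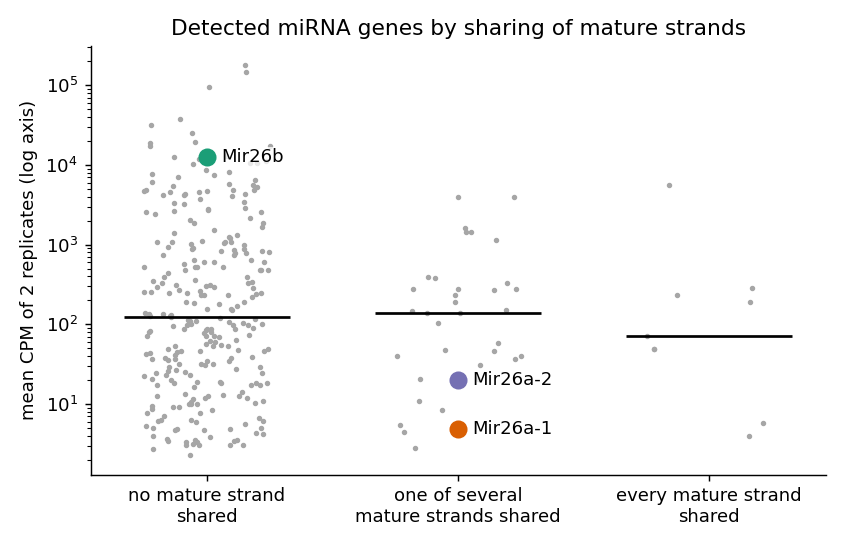
Mean CPM of the 2 replicates (log axis) for the 318 detected miRNA genes with a mature strand listed in the RefSeq table. The 3 classes go by whether the listed strands occur in another hairpin listed there. Each gene is a dot, with horizontal spread for legibility and the class median as a line (123.2, 138.7 and 70.9 CPM from left to right). Mir26b lies near the top of the left class, and Mir26a-2 and Mir26a-1 near the bottom of the middle one.

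Other pairs of copies with a common mature strand showed a wide range of imbalance. Pairs were sought among the strands listed in the RefSeq table. In 19 pairs exactly 2 genes share a strand and each has a further strand of its own. Both genes were detected in 14 of these. A copy that was not matched to a listed strand could not form a pair, so the counts, range and median cover listed pairs alone. Mir125b-2, detected with 3601 reads in each library, is such a gene, and Mir125b-1 was therefore not paired with it. Among these 14 the ratio of the higher to the lower copy ran from 1.39 for the Mir128 genes to 69.4 for the Mir181b genes, with a median of 3.71. Requiring reads in both copies leaves out unequal pairs: Mir194-2 outnumbered Mir194-1, with 1 read in each library, by 233 and 196 times, and Mir103-2 outnumbered Mir103-1 by 28.3 ± 5.42 times. The Mir26a pair, at 4.16, was the 6th of the 14. By the sum of the copies it was the 13th, with 25.1 CPM against a median of 380.2. Among listed pairs with both copies detected, the ratio of the Mir26a copies was thus near the middle and their level near the bottom.

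The nearest parallel in gene structure is the family of Mir103-1, Mir103-2 and Mir107, which lie in introns of the pantothenate kinase genes Pank3, Pank2 and Pank1. There too a mature strand is common to a pair of copies and a sister gene has its own version of it. The strands that carry the shared seed are shown for comparison, with the seed in capitals.

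mmu-miR-103-3p: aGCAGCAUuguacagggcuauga
mmu-miR-107-3p: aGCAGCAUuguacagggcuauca

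They differ by 1 substitution, G22C. Mir107 had 4482 reads in replicate 1 and 4628 in replicate 2, Mir103-2 had 147 and 193, and Mir103-1 had 6 in each library, which is under the detection minimum. Mir107 outnumbered Mir103-2 by 27.2 ± 4.60 times and Mir103-1 by 759.2 ± 17.2 times, against 632.2 ± 20.8 and 2634 ± 414.0 for Mir26b over Mir26a-2 and Mir26a-1. In both families the gene with its own guide had the most assigned reads and the copies had few. The ratios of Mir26b lay above those of Mir107 in each library. How many reads of the shared strands were assigned to the copies was not tested. A read of miR-107-3p that ends before the substituted base also matches miR-103-3p, while miR-26b-5p differs from miR-26a-5p already at C11U. The ratios of the families are therefore not like for like, and cannot be read as ratios of the mature miRNAs.

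Among 42 miRNA genes listed for lying in introns of protein-coding genes, 41 were detected, beside 371 of all 1973 counted genes. The median of the detected ones was 359.7 CPM, beside 114.7 over all detected genes. The list is a choice of known genes and leaves out other intronic ones, among them the Mir26 genes, so these values do not describe intronic genes at large. Whether intronic position bears on either value was not tested. Of these 42 genes, 5 had a higher mean CPM than Mir26b: Mir335 (31984 ± 1592 CPM), the gene in Mest, Mir99b (21419 ± 222.5), Mir126a (19281 ± 1447), the gene in Egfl7 of endothelium, Mirlet7g (17546 ± 223.5) and Mir30e. Mir30e exceeded Mir26b by less than the spread. Mir26a-2 was below 38 of the 42, and Mir26a-1 was above Mir211 and Mir103-1 only, the first of these by less than the spread.

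Further miRNA genes connected with REST or the CTDSP phosphatases had far fewer assigned reads than Mir26b. Of 12 listed, 11 were matched by symbol and 7 detected, beside 371 of all 1973 counted genes, and none of those listed reached Mir26b. Mir9-3 had 283.1 ± 21.1 CPM, Mir132, a neuronal gene responsive to CREB, 270.5 ± 22.9, Mir29c 79.7 ± 7.86 and Mir29a 38.2 ± 13.7. Mir124a-2, a copy of the miR-124 genes that repress Ctdsp1 in neurons, had 9.71 ± 1.58 CPM. The Mir9, Mir124a and Mir29b genes are present in several copies, and how many reads common to the copies are in these values was not tested, as for Mir26a.

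The levels of Mir26b and Mir26a-2 differed little between the pools. After scaling by the trimmed mean of M-values (TMM), the log2 ratio of replicate 1 to replicate 2 was -0.03 for Mir26b, -0.10 for Mir26a-2 and -0.35 for Mir26a-1. The common coefficient of variation of 16.3% over detected genes corresponds to an SD of 0.33 for such a ratio before counting error is added. The median absolute log2 ratio was 0.24. Mir26b and Mir26a-2 lay well inside this spread. Mir26a-1 lay just beyond 0.33, but with 21 and 24 reads its counting error widens the spread, so it was not shown to lie outside. Of detected genes, 30.2% had a larger absolute log2 ratio than Mir26a-1.

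A two-sided exact binomial test of the libraries, with Benjamini-Hochberg adjustment over the 371 detected genes, called Mir26b (adjusted p = 0.00181), and did not call Mir26a-2 (0.749) or Mir26a-1 (0.581). At this threshold it called 53.1% of all detected genes (67.7% where a minimum of 100 reads per library was set, and 25.3% over genes with any read), and with a 2-fold minimum, which no Mir26 gene met, 2.70%. The test covers counting error alone and compares these libraries, not conditions. For Mir26b the ratio behind the call was 0.981, and scaling by library totals turned the sign for Mir26b (log2 ratio 0.01, adjusted p = 0.305).

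**Figure D5:**
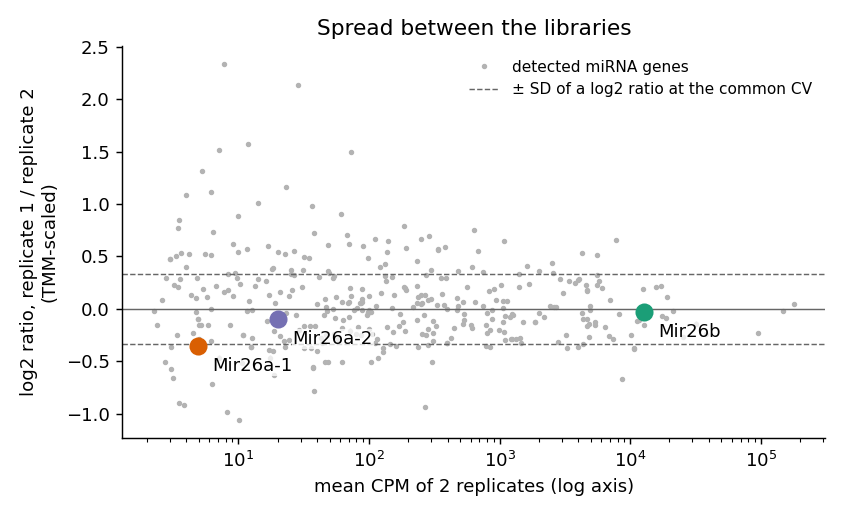
Log2 ratio of replicate 1 to replicate 2 after TMM scaling against mean CPM of the 2 replicates (log axis) for the 371 detected miRNA genes, with the Mir26 genes as large dots and dashed lines at the SD of 0.33 that the common coefficient of variation gives. Mir26b (-0.03) and Mir26a-2 (-0.10) lie between the lines and Mir26a-1 (-0.35) just below the lower one. The lines leave out counting error, which is large for genes with few reads such as Mir26a-1.

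The label of the tissue was compared with listed markers in the same counts. The axial Hox genes Mir10a, Mir10b and Mir196b were all detected and made up 344738 and 332857 CPM. Of 9 neural genes, 8 were matched and 6 detected, beside 371 of all 1973 counted genes. The 8 summed to 3235 and 3649 CPM, most of it from Mir137 with 2809 ± 379.0 CPM. The genes of the neuronal miR-124 were low, from 1.52 CPM in Mir124a-3 and 1.85 in Mir124a-1 to 9.71 in Mir124a-2, as was Mir9-2 with 3.95. They are among the genes with copies. The neural sum lay below those of the endothelial, mesenchymal and sensory genes that follow. Genes of other cell types were present too, with 18258 to 20304 CPM for the endothelial Mir126a, 10629 to 11708 for 4 mesenchymal genes, 1644 to 1784 for 3 epithelial genes, 507.1 to 872.9 for 3 muscle genes and 88.6 to 91.4 for 2 erythroid genes. Genes of sensory ganglia (3 genes) summed to 19094 and 26149 CPM, the leukocyte gene Mir223 had 969 and 753 reads, and the liver gene Mir122 had 155 and 62. Mir26 genes are active in many cell types, and the part of each of these in the Mir26 counts was not tested.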

How the data were processed

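MicroRNA libraries of 2 biological replicates, the only group, were analysed. The authors deposited raw read counts per miRNA gene, for both strands and for each strand, on mm10 with genome annotation M4, per the file descriptions. The sources used here name no aligner, counter or trimming. The 4 rows that are no gene stayed out of all totals; the row of multimapping reads held 27.0% and 28.6% of the file totals. Column 3 was used as the strand of the gene. It held all but 1.72% and 1.48% of gene reads.

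Of 1973 identifiers, 1894 matched GENCODE M21, which is on the same assembly. Scaling used TMM and the common dispersion of edgeR 4.0.16, with size factors of DESeq2 1.42.0 as an alternative (R 4.3.3). The library comparison was the exact binomial test of scipy 1.17.1 with a threshold of 0.05. It was checked on simulated counts with counting error alone, so the check does not cover variation between replicates. Python 3.11.15, pandas 2.3.3, numpy 2.4.6, matplotlib 3.10.9 and RNAfold 2.7.2 were used. Hairpins were compared with the miRNA hairpins listed in the RefSeq table alone, at loci that do not overlap, since no genome sequence was used here. A ratio was said to differ from 1 when its mean lay more than 1 SD from 1 and both libraries lay on the same side.

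The members and lists were chosen with earlier results of these data known. Named genes are the members, the 2 detected genes next above and below each by mean CPM, up to 4 leading genes of each list, genes with the Mir26 seed and genes in the host family. Other genes named, among them Mir30e in its list, the listed genes below Mir26a-1, Mir124a-2, the Mir103 and Mir107 genes, genes with the 3p seed and the pairs of copies, were chosen after their values were seen.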

Additional observations from a re-analysis of the deposited data

How the results depend on the processing

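With multimapping reads added to the denominator, the levels fell to 7669 CPM for Mir26b, 12.1 for Mir26a-2 and 2.96 for Mir26a-1 and the family share to 0.768%, and ratios within a library cannot change by this. With both strands counted together Mir26b had 12547 CPM and the share was 1.26%. The log2 ratio of the libraries for Mir26b changed sign with library totals (0.011) and with a minimum of 100 reads (0.013), and lost its call in both, while TMM over genes with at least 1 read gave -0.06. The Mir26a genes were out of reach of the minimum of 100 reads. It also left 2 genes past the test at 2-fold, against 10, and other settings 10 to 13. The common coefficient of variation was 15.2% with that minimum and 16.3% with DESeq2 size factors. With windows of 18 and 22 bases, 8 and 4 windows of each Mir26a hairpin were shared, against 6, always in the same 25 bases. The test called 182 of 269 genes (67.7%) with a minimum of 100 reads and 186 of 736 (25.3%) with at least 1 read in either library, against 197 of 371 (53.1%). The other levels, ratios and ranks of the members moved by no more than 1 SD. In single libraries, the ratio of Mir26a-2 to Mir26a-1 was 3.79 to 4.52, and Mir26b was the 14th gene in both. The 21 and 24 reads of Mir26a-1 limit every ratio that uses it. No paired analysis was possible because there is 1 group.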

Other observations

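The 3′ UTRs of the host genes were searched for TACTTGA, the complement of the shared Mir26 seed, on the transcript strand (1 principal transcript per gene, GENCODE M21). The 3′ UTR of Ctdsp2 (3483 bases) held 1 match, and those of Ctdspl (3349 bases) and Ctdsp1 (1701 bases) held none. Of protein-coding genes with a 3′ UTR of like length, 22.3%, 22.6% and 11.9% held at least 1 match. A match is a description and not a site, and its absence says only that these letters are not in the annotated stretch.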
